A study of Mus musculus with 10 samples.

Results

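Among 161460 autosomal probes of a mouse comparative genomic hybridization array, 340 lay on the same side of the common reference in every one of 10 animals. A probe was counted when its log2 ratio of animal DNA over reference DNA, centred on the autosomal median of its array, exceeded 0.35 in all 10 animals or was under -0.35 in all 10, and when its highest and lowest animal differed by less than 1.2. These 340 probes were 0.211% of the autosomal probes, and the whole array held 170305 probes other than controls. Of them, 261 (76.8%) lay above the reference and 79 lay below it, a ratio of 3.30. The excess above the pool depended on the threshold, with 641 against 154 probes at 0.25 and 56 against 38 at 0.5. The probes were chosen by the ratios themselves, so their sign and size are described here with no test.

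The DNA came from the liver of 5 mice born after intracytoplasmic sperm injection (ICSI) and of 5 naturally born mice. The ICSI-derived animals descended from ZFLacZ male germ cells taken from testes that had been kept frozen for 14 years and were injected into oocytes of DBA x C57BL/6 females. The naturally born animals were wild-type ZFLacZ progeny, and ZFLacZ is a transgenic line that started from SJL x C57BL/6. Each group held 3 labelled males and 2 labelled females. Every animal was labelled with Cy5 and was hybridised against 1 reference in Cy3, which pooled equal DNA of adult C57BL/6, SJL and DBA mice. By these labels, SJL and C57BL/6 are in the ancestry of both groups and DBA in that of the ICSI-derived animals; the share of each strain in an animal is not given in the sources used here. An age other than adult, for the pool and the naturally born animals, is not given either.

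Array comparative genomic hybridization reads the relative amount of a target sequence: differently labelled genomic DNAs compete for the same probe, and the ratio of their signals follows the ratio of their copies. Inbred mouse strains differ from each other both in sequence and in copy number, and families of immune, olfactory and zinc finger genes that lie in tandem arrays are well known for such differences. The reference genome of the mouse is that of C57BL/6. A pool of several strains reads as an average of them, so an animal and a pool can differ at a site where the strains of the pool differ. The dyes were never exchanged. A probe's own preference for a dye and a difference in copy number or sequence between the animals and the pool cannot be told apart in these data, since both give the same sign on every array.

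Each array held 174305 spots, of which 173864 to 174090 were well above background in both channels. Measured as the spread of differences between neighbouring probes, noise was 0.140 to 0.151 on 7 arrays and higher on ICSI-derived animals 1 (0.201) and 4 (0.208) and naturally born animal 2 (0.173). The mean over chromosome X was 0.85 higher on the log2 scale in the 4 labelled females than in 5 labelled males, where a full doubling would give 1. The sixth labelled male, naturally born animal 3, was left out of that difference because it stood apart from the other males, with a mean of -0.03 over chromosome X and of -0.01 over chromosome Y. Both means lay between those of the other labelled males and those of the labelled females. The cause was not tested, and this animal was kept as a labelled male in the models below. Only 3 of the 340 probes were not well above background on at least 1 array, and none was saturated on any.

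The probes above the reference were mostly modest in size. Their means over the 10 animals ran from 0.42 to 1.38, with a median of 0.64 and quartiles of 0.56 and 0.82, so that the median probe was 1.56-fold over the pool. The largest number, 81 probes, had means from 0.5 to 0.6, and another 59 had means from 0.6 to 0.7. In all, 162 (62.1%) had a mean under 0.7 and 19 (7.28%) had a mean over 1. The probes below the reference had means from -1.75 to -0.42, with a median of -0.68 and quartiles of -0.86 and -0.58. At the median the pool was 1.60-fold over the animals. A mean under 0.7 in size was found for 42 (53.2%) of them and a mean over 1 in size for 10 (12.7%).

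**Figure D1:**
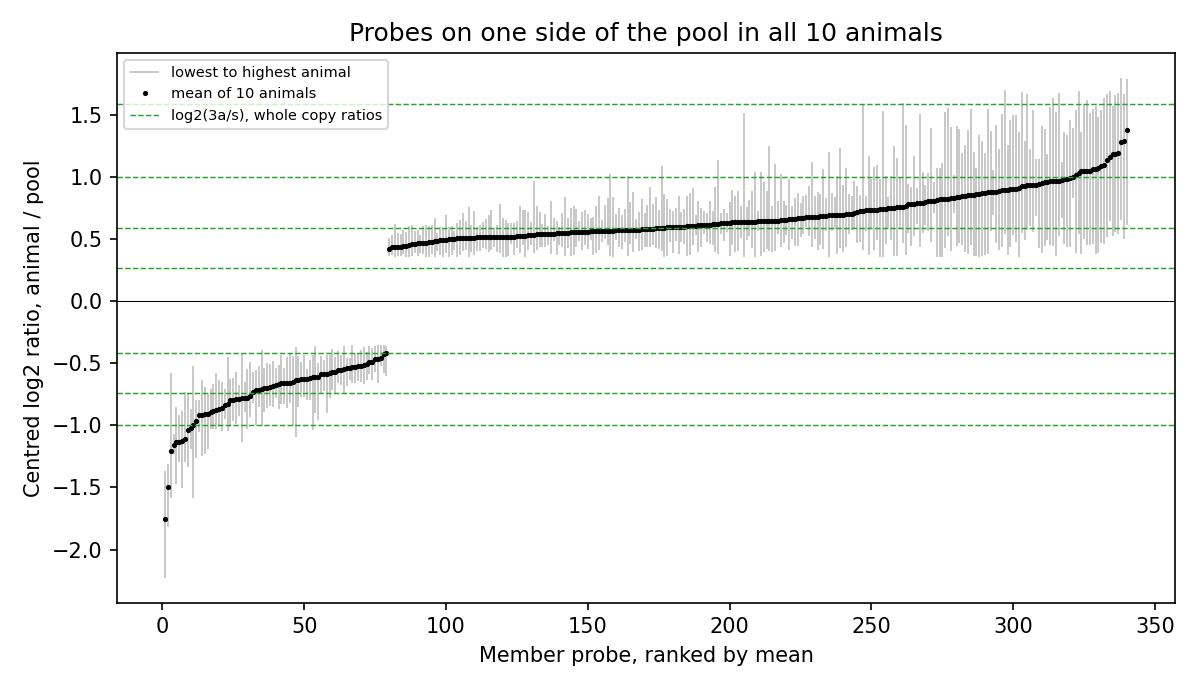
Centred log2 ratio of animal over pool (y axis) for the 340 probes ranked by mean (x axis). Points are means of 10 animals, grey lines run from the lowest to the highest animal, and dashed lines mark ratios of whole copy numbers against a 3-strain pool. The 79 probes below 0 and the 261 above 0 each form a continuous curve, and the grey lines lengthen toward the highest means.

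The animals differed from each other more at the probes above the pool. The range from the lowest to the highest animal had a median of 0.41 above the pool and of 0.35 below it, against 0.33 for all autosomal probes. The range exceeded 0.8 for 65 of the 261 probes above and for 3 of the 79 below. The standard deviation over 10 animals had a median of 0.13 above, 0.12 below and 0.10 over all autosomal probes. The probe with the lowest standard deviation, at chr12:100247611-100247668, lay at 0.42 ± 0.04 (SD, n = 10), with its animals between 0.36 and 0.51. The limit on the range removed 15 probes that lay above 0.35 in all animals and 3 that lay below -0.35 in all animals.

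The size of the deviation was similar in every animal, which the counting rule itself favours. Every animal had to pass the same threshold within a limited range, so close medians and overlapping groups are partly fixed. The median over the 261 probes above the pool was 0.64, 0.57, 0.57, 0.65 and 0.60 in ICSI-derived animals 1 to 5. It was 0.59, 0.63, 0.61, 0.59 and 0.60 in naturally born animals 1 to 5. The groups thus overlapped. The median over the 79 probes below the pool was -0.71, -0.68, -0.72, -0.70 and -0.66 in the ICSI-derived animals. It was -0.69, -0.68, -0.70, -0.66 and -0.71 in the naturally born animals, and the groups overlapped for both signs. The highest of the 10 animals at a probe above the pool was most often ICSI-derived animal 4 (55 probes) or ICSI-derived animal 1 (45 probes), which are the animals with the noisiest arrays. The part of noise in those counts was not tested.

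The 3 probes that only just entered above the pool had a lowest animal of 0.3513 (chr12:102324100-102324159), 0.3516 (chr11:31383034-31383093) and 0.3521 (chr10:93742584-93742643). Outside it, the nearest had a lowest animal of 0.34998 (chr6:6521197), 0.3489 (chr3:7538999) and 0.3485 (chr8:84204267). Below the pool, the nearest inside were -0.3509, -0.3520 and -0.3523 and the nearest outside -0.3479, -0.3467 and -0.3459. Fewer probes passed the threshold in more animals, up to 9: exactly 1 animal was above 0.35 at 10958 probes and below -0.35 at 11017. Exactly 5 animals were above at 878 probes and below at 444, and exactly 9 were above at 189 and below at 51. All 10 were above at 276 and below at 82 before the limit on the range, more than exactly 9 for both signs. The 2 signs were about equal in number for 1 animal. More probes lay above than below from exactly 2 animals on (4888 against 3836), and for 3 animals the numbers were 2802 and 1625.

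Most probes chosen on part of the animals kept their side of the pool in the animals left out. Every array shared the same pool and the same dyes, so an offset of a probe from either recurs in the animals left out. Probes that passed in all animals left out were past the threshold in every animal, which the counting rule already requires. The split thus describes only how far the ratios recur between arrays, and the source of the offset was not tested. Choosing on the 5 naturally born animals alone gave 545 probes above the pool, of which 274 (50.3%) passed 0.35 in all 5 ICSI-derived animals and 469 (86.1%) were above 0 in all 5. Of 192 probes chosen below the pool in the same way, 80 (41.7%) passed in all 5 ICSI-derived animals and 128 (66.7%) were below 0 in all 5. Choosing on the 5 ICSI-derived animals gave 437 probes above, of which 264 (60.4%) passed and 415 (95.0%) kept their sign in all 5 naturally born animals. It gave 133 below, of which 81 (60.9%) passed and 113 (85.0%) kept their sign. The median mean was 0.60 in the naturally born animals that chose the probes above the pool and 0.55 in the ICSI-derived animals that had not. Below the pool the same choice gave -0.65 and -0.50, a larger shrinkage. With the ICSI-derived animals choosing, the values were 0.62 and 0.55 above and -0.65 and -0.59 below. When 9 animals chose the probes, 89.2% to 96.7% of those above and 90.8% to 98.8% of those below passed in the animal left out.

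Most of these probes stood apart from the uncounted probes around them. The 10 nearest autosomal probes that were not themselves counted (5 on each side, with a median spacing of 10.8 kb) had a mean with a median of 0.01 around the probes above the pool and of 0.01 around those below. That mean lay within 0.1 of 0 for 228 of the 261 probes above and for 70 of the 79 below. It leaves out other counted probes nearby, so its nearness to 0 is partly fixed by the choice of neighbours. Outside the clusters described next, the median probe above the pool was at 0.64 and the probes directly before and after it were at 0.02 and 0.00. Below the pool the corresponding values were -0.69 for the probe and -0.02 and 0.03 for its neighbours. Outside clusters the deviation was thus seen, in the median, at 1 probe of at most 60 bases and not at the next probe on either side.

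**Figure D2:**
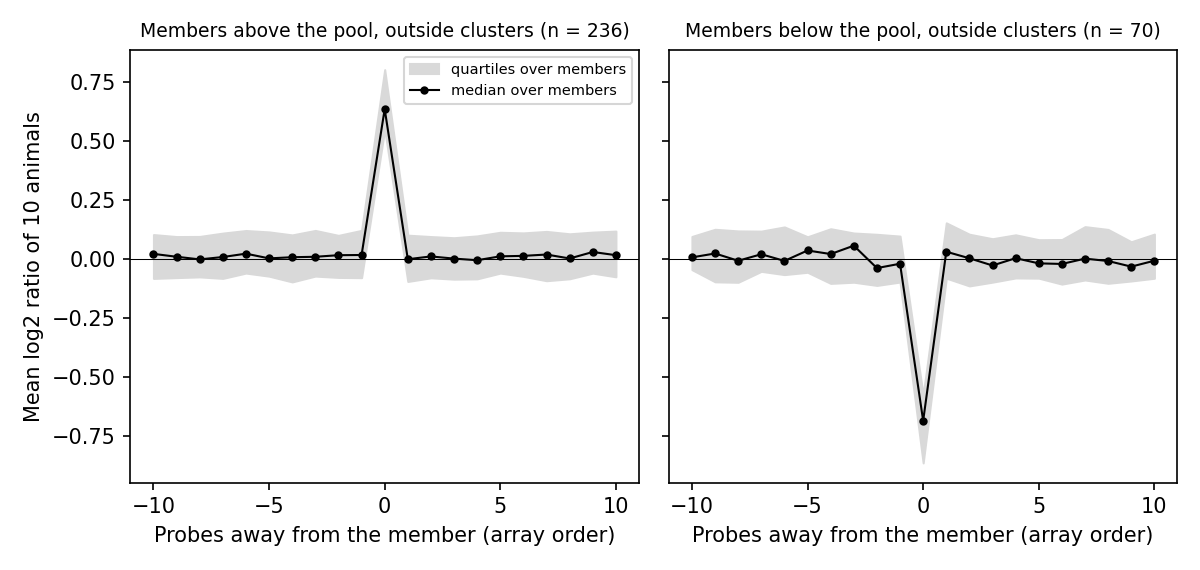
Mean log2 ratio of 10 animals (y axis) at the probes up to 10 places before and after a counted probe in array order (x axis), for the 236 probes above and the 70 probes below the pool that lie outside clusters. Lines are medians and grey bands quartiles over probes; the deviation at place 0 is gone at the adjacent probes.

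The probes were unevenly spread over the genome all the same. Another counted probe lay within 1 Mb of 183 of the 340 (53.8%), whereas 19.6% of the other autosomal probes had a counted probe within 1 Mb. Within 200 kb the shares were 27.1% (92 probes) and 5.16%. Directly adjacent counted probes formed 24 pairs, and in 23 of them both probes had the same sign. Chromosome 7 held 44 probes above and 18 below the pool, or 6.31 per 1000 of its probes. Chromosomes 2 (38 above, 6 below), 11 (26 above, 3 below) and 6 (17 above, 10 below) followed with 3.46, 3.22 and 2.63 per 1000. Chromosome 15 held 2 probes, 0.299 per 1000, and chromosomes 12, 15 and 17 held none below the pool.

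Long stretches held no such probe. On chromosome 1 there was none over 127 Mb and 7759 probes from the start of the array's coverage at position 3017293 to position 129992676. On chromosome 4 there was none over 102.6 Mb (34880838 to 137444369), and on chromosome 12 none over 85.7 Mb (3102541 to 88825850). The fullest windows of 5 Mb lay on chromosome 7, with 11 of 425 probes between 50868801 and 55566998 (7 above, 4 below) and 10 of 403 between 109404315 and 111879719 (9 above, 1 below). By share, the fullest of the 8 windows with the most counted probes was on chromosome 4 between 142642938 and 146023660, with 9 of 228 probes (3.95%), 7 of them below the pool. In each of these windows the probes that were not counted had a median within 0.06 of 0.

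Runs of at least 3 counted probes of one sign, each less than 200 kb from the next, formed 9 clusters with 34 probes (10% of the 340). Of these clusters 7 lay above the pool and 2 below. All positions are those of mouse build mm9, as printed on the arrays, and were not matched to a gene annotation of that build here; gene families named below are given from general knowledge of the mouse genome.

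The largest cluster held 7 of the 9 probes between 71014299 and 71107103 on chromosome 11, in the region of the Nlrp1 genes, which encode inflammasome sensors that respond to bacterial toxins. Averaged over its 7 probes, the ICSI-derived animals 1 to 5 had log2 ratios of 1.24, 0.61, 0.62, 0.64 and 1.23. The naturally born animals 1 to 5 had 1.24, 1.28, 1.34, 1.33 and 0.64. The animals thus fell at about 0.6 (4 animals) or between 1.23 and 1.34 (6 animals), with animals of both groups at each level. The 2 probes of the span that were not counted had a mean of 1.08, and the 10 probes flanking the span had a mean of 0.08. The first probe of the cluster (chr11:71014299-71014358) did not share this split: it lay at 0.68 ± 0.07 (SD, n = 10), with its animals between 0.59 and 0.86.

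On chromosome 7, all 3 probes between 111430424 and 111459364 were above the pool. Their mean was 1.15, 0.53, 0.60, 0.69 and 1.10 in the ICSI-derived animals and 1.21, 0.59, 1.03, 1.21 and 0.54 in the naturally born animals. The 5 low animals lay between 0.53 and 0.69 and the 5 high animals between 1.03 and 1.21. The middle probe of the 3 was not well above background in Cy3 on 2 arrays, so its ratio is less certain there.

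On chromosome 5, 3 of 8 probes between 104993639 and 105163629 were above the pool, with a mean of 0.97. The ICSI-derived animals had 0.59, 0.45, 1.42, 1.34 and 0.37, and the naturally born animals had 1.30, 1.35, 1.04, 1.31 and 0.51. Here 4 animals lay at 0.37 to 0.59 and 6 at 1.04 to 1.42. The 5 other probes of the span had a mean of 0.37 and the 10 flanking probes a mean of 0.32, so the region as a whole lay above the pool and not only its counted probes.

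The other 4 clusters above the pool were lower and more even between animals. The probes between 169552352 and 169777198 on chromosome 1 (3 of 25) had a mean of 0.62, with animals from 0.47 to 0.78, while the other 22 probes of the span had a mean of 0.01. The 3 of 18 probes between 85919997 and 86097304 on chromosome 2, among olfactory receptor genes, had a mean of 0.57, with animals from 0.48 to 0.70; the other 15 had a mean of 0.13 and 1 of them reached 0.89. The 3 of 10 probes between 70457367 and 70636470 on chromosome 6, in the immunoglobulin kappa locus that encodes light chains of antibodies, had a mean of 0.59, with animals from 0.53 to 0.68; 1 probe inside this span lay below the pool in all animals, and the other 6 had a mean of 0.12. The 3 of 8 probes between 54576634 and 54771719 on chromosome 7 had a mean of 0.69, with animals from 0.62 to 0.74; the other 5 of the span had a mean of 0.07, and the 10 flanking probes had a mean of 0.29. Within each of these 4 clusters the 2 groups overlapped.

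Like some of the clusters above the pool, both clusters below it lay in known gene family regions. On chromosome 4, 5 of the 7 probes between 145018403 and 145149582, a region of KRAB zinc finger genes that encode transcriptional repressors, had a mean of -0.71. Averaged over the 5 probes, the ICSI-derived animals had -0.81, -0.62, -0.64, -0.88 and -0.60 and the naturally born animals -0.83 (animal 2), -0.88 (animal 5) and between -0.62 and -0.59 (the others). In this average the animals farthest below the pool were ICSI-derived 1 and 4 and naturally born 2 and 5. The first probe of the cluster (chr4:145018403-145018462) did not share this split: ICSI-derived animal 3 was lowest there, at -0.95, and naturally born animal 2 was at -0.79. At the second (chr4:145029619-145029676), ICSI-derived animal 1 (-0.54) lay beside ICSI-derived animal 5 (-0.53). ICSI-derived animals 1 and 4 and naturally born animal 2 had the noisiest arrays, and the part of noise was not tested. The 2 other probes of the span also lay below 0 in the mean, at -0.43 and -0.11. On chromosome 6, 4 of the 10 probes between 129795763 and 129874417, in the natural killer gene complex that encodes lectin-like receptors, had a mean of -0.67. Their animals lay between -0.75 and -0.56 with both groups mixed, and the other 6 probes of the same span had a mean of 0.02.

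**Figure D3:**
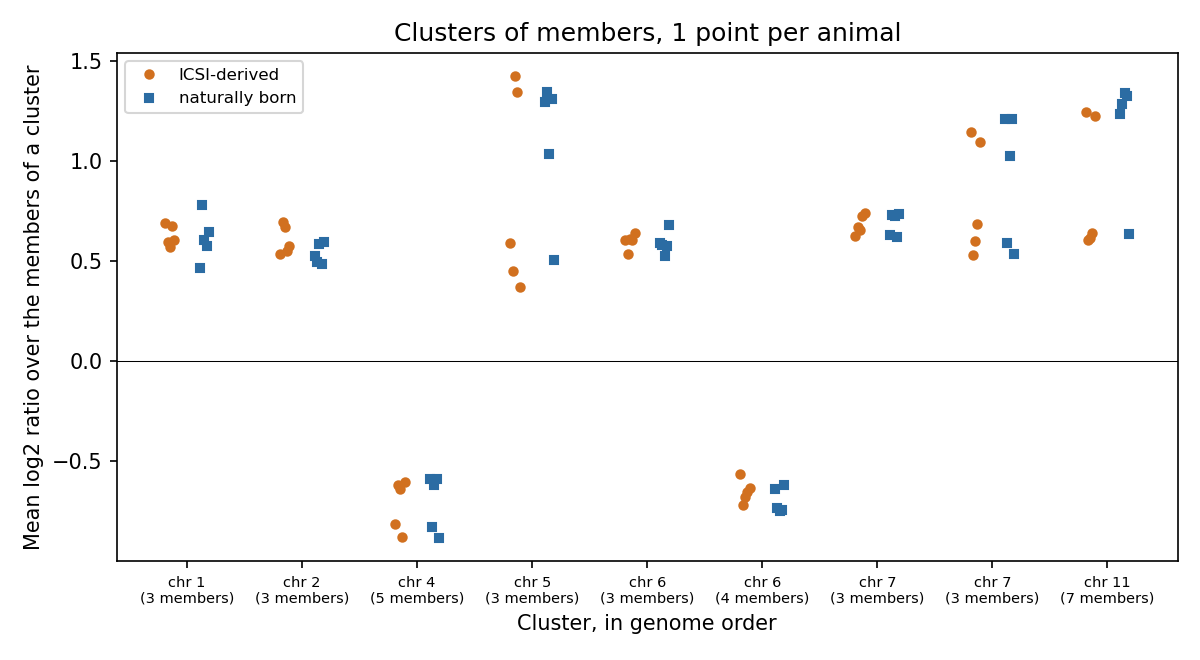
Mean log2 ratio over the counted probes of each of the 9 clusters (y axis), 1 point per animal, with the ICSI-derived animals (circles) and the naturally born animals (squares) side by side. The animals lie at separate levels in the chromosome 5 cluster, the second chromosome 7 cluster, the chromosome 11 cluster and, more closely, the chromosome 4 cluster, and lie together in the others.

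Outside the clusters, the probe farthest below the pool was chr14:113911512-113911571, at -1.75 ± 0.32 (SD, n = 10). Its animals ran from -2.23 to -1.37, and on 4 arrays its Cy5 signal was not well above background, so its ratio is less certain there. The next, chr16:74613049-74613108, had values of -1.60, -1.31, -1.82, -1.34 and -1.48 in the ICSI-derived and of -1.60, -1.44, -1.39, -1.50 and -1.51 in the naturally born animals. Its mean was -1.50 ± 0.15 (SD, n = 10), with the groups overlapping, and another probe 42 kb away on the same chromosome (74655275-74655334) lay at -0.89 ± 0.10. A similar pair lay within 1 kb on chromosome 4: the probe at 146023601-146023660 was at -1.16 ± 0.06 with its animals between -1.23 and -1.07, and the one at 146023056-146023115 was at -0.79 ± 0.08. The remaining 3 of the lowest probes were chr7:61880195-61880254 at -1.21 ± 0.33, chr5:73812737-73812796 at -1.14 ± 0.21 and chr7:24127770-24127829 at -1.13 ± 0.11. Also below the pool, and named after their values were seen, 2 adjacent probes in the region of the Raet1 and H60 genes on chromosome 10, which encode ligands of a natural killer cell receptor, lay at -0.70 and -0.46.

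The isolated probes farthest above the pool varied more between animals than those below. The highest, chr14:53759070-53759129, had values of 1.79, 0.68, 0.61, 1.72 and 1.41 in the ICSI-derived animals and of 1.46, 1.53, 1.62, 1.59 and 1.38 in the naturally born animals. Its mean was 1.38 ± 0.41 (SD, n = 10), and ICSI-derived animals 2 and 3 stood well under the other 8. The next, chr7:62220250-62220309, had a mean of 1.29 ± 0.40, with its lowest animal at 0.50 and its highest at 1.66. The others of the top 6 were chr7:89037603-89037662 (1.19 ± 0.47), chr2:57036487-57036546 (1.18 ± 0.41), chr5:37052483-37052542 (1.16 ± 0.42) and chr8:30907272-30907331 (1.13 ± 0.48). Each of these 6 had a lowest animal between 0.50 and 0.64 and a highest between 1.57 and 1.79. At every one of them the highest ICSI-derived animal was at 1.48 or more and the highest naturally born animal at 1.55 or more.

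Separate levels among the animals were more frequent above the pool. Counting a probe as 2-level when the largest gap between neighbouring animals in order was at least 0.5, 26 of the 261 probes above the pool (9.96%) and 0 of the 79 below were so. With a gap of at least 0.3 the numbers were 66 above and 3 below. At 3 of the 26 a single animal stood above the other 9, and at 23 at least 2 animals stood on each side. Animals of both groups were found on both sides of the gap at 18. At the 23, the lower animals had a median level of 0.55 (0.42 to 0.81) and the upper animals of 1.43 (1.07 to 1.63). The difference between the levels had a median of 0.87, which the limits on the gap and the range hold between 0.5 and 1.2. The difference of labelled females and males over chromosome X, given above, was 0.85.

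The clearest example was chr4:20008384-20008443. ICSI-derived animals 1 to 5 had log2 ratios of 0.43, 0.48, 1.44, 1.48 and 0.49, and naturally born animals 1 to 5 had 0.52, 0.59, 0.53, 0.43 and 1.51. Its 7 low animals had a mean of 0.50 and its 3 high animals of 1.48, with a gap of 0.85 between them. At chr2:80260158-80260217, 6 animals had a mean of 0.55 and 4 (ICSI-derived 1, 2 and 5 and naturally born 1) of 1.43. Below the pool the largest gaps were 0.38 at chr1:181664493-181664552, 0.38 at chr7:61880195-61880254 and 0.34 at chr4:145040680-145040739. At the last of these, ICSI-derived animals 1 and 4 and naturally born animals 2 and 5 were at -1.09 to -0.80 and the other 6 at -0.47 to -0.37.

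Which animals were low was often shared by nearby probes of a chromosome and seldom between chromosomes. The 26 probes had 17 distinct sets of low animals. Of 11 pairs of consecutive 2-level probes less than 20 Mb apart, 8 had exactly the same low animals, whereas 1 of 287 pairs on different chromosomes did. On chromosome 11, a probe at 64967894 shared its low animals (ICSI-derived 2, 3 and 4 and naturally born 5) with 4 probes of the cluster 6.08 Mb further on. On chromosome 12, probes at 102324100, 105063971 and 105176933 all had ICSI-derived animals 3 and 4 as their high animals. On chromosome 2, probes at 80260158 and 97101415 shared one set of 6 low animals, and probes at 108122371 and 118303769 shared another of 8 that contained those 6. The 10 nearest uncounted probes around the one at 97101415 had a mean of 0.03. Probes of one such run share their animals' chromosomes and are not independent sites.

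**Figure D4:**
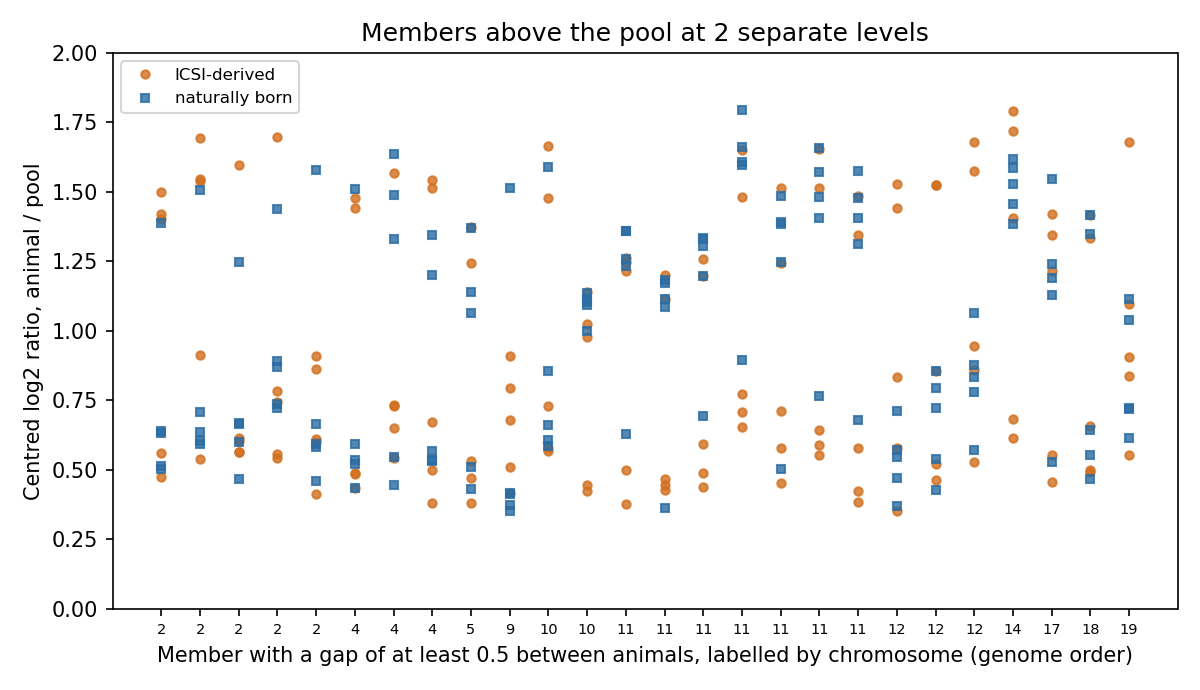
Centred log2 ratio of each animal (y axis) at the 26 probes whose ordered animals are at least 0.5 apart at 1 point, in genome order and labelled by chromosome (x axis). Circles are ICSI-derived and squares naturally born animals; a gap separates a lower from an upper set of animals at every probe, and animals of both groups lie on both sides at 18 of them.

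The means were then set against ratios of whole copy numbers. With 3 strains in equal parts, an animal with 1 copy of a sequence per haploid genome against a pool in which the strains hold 1 to 6 copies in sum has a log2 ratio of 3 over that sum. The levels used are 1.58 (a sequence in 1 strain of the pool), 0.58 (in 2 strains) and 0 (in all 3). With 1, 2 or 3 extra copies in the pool they are -0.42, -0.74 and -1. An animal with 2 copies adds the levels 2.58, 1 and 0.26. Animals with a sequence on only 1 of their 2 chromosome copies were given no levels of their own. Such an animal can also read at 0.58, with the sequence in 1 strain of the pool. It can read at -0.42 with the sequence in 2 strains and at -1 with it in all 3. A level thus fixes neither the number of strains nor the presence of extra copies in the pool. Of the 261 probes above the pool, 170 (65.1%) had a mean within 0.1 of such a level, 137 at 0.58 and 33 at 1. Of the 79 below, 42 (53.2%) did, 25 at -0.74, 9 at -0.42 and 8 at -1. These windows cover 41.6% of the values that the probes above occupy and 37.0% of those that the probes below occupy. The levels lie close enough together that nearness to one is a weak description, and the threshold of 0.35 itself lies not far under 0.58.

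The array did not reach the full size of a known ratio, and scaling the levels by it moved probes between levels. Multiplied by the chromosome X slope of 0.85, the levels became 0.50, 0.85 and 1.34 above the pool and -0.35, -0.62 and -0.85 below. Above the pool, 157 probes (60.2%) then had a mean within 0.1 of a level, 101 at 0.50 and 53 at 0.85, in windows that cover 53.5% of the occupied values. Below the pool, 58 (73.4%) did, 37 at -0.62 and 19 at -0.85, in windows that cover 32.3%. At a tolerance of 0.05 and without scaling, 88 probes above (33.7%, windows covering 20.8%) and 21 below (26.6%, windows covering 18.3%) were near a level. A mean over animals that sit at 2 levels need not lie at either. The median levels of the 2-level probes, 0.55 and 1.43, stand beside levels of 0.58 and 1.58 without scaling and of 0.50 and 1.34 with it, so that 0.55 was within 0.1 of a level on both scales and 1.43 only with scaling. The threshold and the limit on the range partly fix both.

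Replicate spots gave a further view of precision at 2 sites. Of 949 autosomal probes printed in replicate, 2 (0.211%) were counted. The probe at chr2:4692359-4692418 was at 0.44 with a standard deviation of 0.06 between animals, and its spots on 1 array had standard deviations of 0.02 to 0.10. The probe at chr10:127188403-127188462 was at 0.44 with 0.06 between animals and 0.03 to 0.07 within arrays. The spread between animals is that of averages over 5 spots and the spread within an array that of single spots, so these values are not on one scale.

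The comparison the series was made for, ICSI-derived against naturally born animals, gave no difference at these probes past the test's threshold. In limma's model over all 161460 autosomal probes, with group and labelled sex as terms and Benjamini-Hochberg adjustment at 0.05, 32 probes (0.0198%) were called between the groups. None of the 340 was among them, and 20 of the 340 (5.88%) had an unadjusted p under 0.05 against 5274 of all probes (3.27%). The difference between the groups (ICSI-derived minus naturally born) ran from -0.50 to 0.49 above the pool, with a median of 0.01, and from -0.39 to 0.15 below, with a median of -0.002. The naturally born animals were farther from the pool at 121 of the 261 probes above and at 37 of the 79 below. The rule on the range and the threshold limits how far the groups can differ at these probes, so that the count of calls describes a selected set. On simulated data of this design, the model recovered 35%, 88.5% and 97.5% of probes that differed by 0.3, 0.6 and 1. Those probes were drawn from all autosomal probes, whose standard deviation over animals had a median of 0.10, against 0.13 above and 0.12 below the pool. The simulated noise was normal, with no separate levels among animals. Recovery at the 340 probes was not tested.

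**Figure D5:**
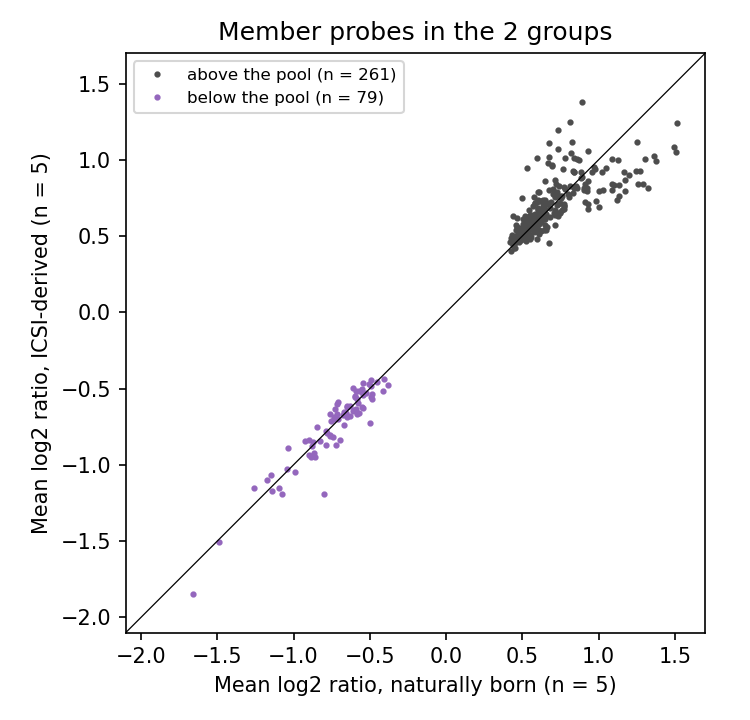
Mean log2 ratio of the 5 ICSI-derived animals (y axis) against that of the 5 naturally born animals (x axis) for the 261 probes above and the 79 below the pool; the line marks equal means. The points follow the line, and the scatter around it is wider at high ratios, where the group difference reaches -0.50 and 0.49.

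At 1 of the 340 probes (0.294%) the groups did not overlap, against 824 of all autosomal probes (0.510%). This probe, chr7:63807899-63807958, is named after its values were seen. Its ICSI-derived animals had log2 ratios of 0.84, 0.76, 0.56, 0.63 and 0.59 and its naturally born animals 0.92, 0.93, 0.92, 1.03 and 0.85, so that every animal was above the pool and the naturally born animals were higher. The difference was -0.26 ± 0.06 (SE), with an adjusted p of 1 in limma's model. Between labelled females and males, 6 of the 161460 probes (0.00372%) and none of the 340 were called by the same model. An unadjusted p under 0.05 was found for 14 of the 340 (4.12%) and for 4705 of all probes (2.91%).

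Within slide 2, which held 2 animals of each group and among them naturally born animal 3, limma's model called 14 of the 340 probes between the groups. Of these, 4 were higher and 10 lower in the ICSI-derived animals. Over all 161460 autosomal probes 226 were called, a smaller share. That fit had terms for group and labelled sex on 4 arrays, so its estimate of spread rests on few animals. Within slide 1 none of the 340 was called, of 37 over all. With slide as a block over all 10 animals, none of the 340 was called. By the labels, each array held the DNA of a separate animal, and p-values measure the spread between these 10. The 10 include naturally born animal 3 as a labelled male, although its chromosome X and Y means lay between those of the labelled sexes.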

How the data were processed

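Genomic DNA of 10 mice was hybridised on 2-colour Agilent arrays on 3 slides (4, 4 and 2 arrays). The processed signal intensities of Cy5 and Cy3 were made with Feature Extraction 10.7.3.1, which subtracts background and normalizes the dyes, per the file headers. In the authors' deposited value table, each log10 ratio of Cy5 over Cy3 equalled the one that Feature Extraction gave. Partek 6.5 is named in the submitters' processing notes. Build mm9 is named in 6 headers; the other 4 name none and carry the same coordinates. Spots of one probe were averaged, control spots were left out, and log2 ratios were formed from the processed signals and the median over autosomal probes of an array was subtracted. A probe's neighbours were the 5 nearest probes on each side that were not counted themselves. Limma 3.58.1 (R 4.3.3) was fitted to all autosomal probes with group and labelled sex, two-sided, and was tested on simulated data, where 28 of the unchanged probes were called falsely. The probes, the tests and the lists were chosen with earlier results of these data known. Named sites are all clusters, the 6 highest and 6 lowest means outside clusters, the 3 probes nearest each side of the threshold per sign, the 3 largest gaps per sign, and any called probe up to 10. Other single sites in the text (the probe with the lowest standard deviation, the partners of named probes, the chromosome 10 pair, the members of shared 2-level sets and the probe whose groups did not overlap) were picked after their values were seen. The other settings tried were the centring, normexp (offset 50) on median intensities, loess, the value table, flagged and dim spots, the threshold, the range limit, joining distances, the tolerance, slides, array weights, a block and leaving out animals. Gene annotation and probe sequences were not used here. With 10 arrays, their number limits the precision.

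ICSI-derived and naturally born animals of the same number shared a slide and a labelled sex, but the labels do not say that a number marks a pair. Deviations from the group mean of animals with the same number correlated at 0.05, -0.28, 0.10, -0.01 and 0.15 over the autosomal probes, so the numbers were not taken to pair the animals.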

Additional observations from a re-analysis of the deposited data

Results flagged for a closer look

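Of 22 sets of 5 animals checked for a lone value, 1 was marked, where chance marks about 1 in 20. In the cluster of 7 probes on chromosome 11 from 71014299, naturally born animal 5 was at 0.64 and the other 4 naturally born animals were between 1.24 and 1.34. The gap was 0.852 of the range of the group, over Dixon's critical value of 0.71. Of the ICSI-derived animals, 3 were at the same lower level, so the value is shared with other animals of the series.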

How the results depend on the processing

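The number of probes depended most on the rule itself. With a threshold of 0.25 there were 641 above and 154 below the pool, and with 0.5 there were 56 and 38. A range limit of 0.6 left 170 above. Chosen on the naturally born animals alone, 545 were above and 192 below; chosen on the ICSI-derived animals alone, 437 and 133. Leaving out each animal in turn gave 272 to 296 above and 80 to 88 below. Without the 3 noisiest arrays, a setting added after seeing the data, there were 340 and 94. Under normexp, 333 of the 340 kept their sign in all animals and 229 (67.4%) still met the rule, and the clusters fell to 5. Joining within 100 kb gave 4 clusters, and counting 2 or more probes as a cluster gave 33. At a tolerance of 0.05, 109 means lay near a copy ratio in place of 212. Between the groups, 226 of 161460 autosomal probes and 14 of the 340, a larger share, were called within slide 2, from 4 arrays. Leaving out each animal gave 26 to 77 autosomal probes, the highest without ICSI-derived animal 3, with none of the 340 called in any. The causes of these changes were not tested. With the replicate number as a block, 25 autosomal probes (21 higher, 4 lower in the ICSI-derived animals) and none of the 340 were called. Between labelled sexes none of the 340 was called under the 21 other settings run; within slide 1, which held labelled males only, and with the replicate number as a block, which fixes the labelled sex, no sex fit could be made.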
